A study of Homo sapiens with 6 samples.

Results

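RORA and 9 genes of the circadian clock (NR1D1, NR1D2, PER1, PER2, PER3, CRY1, CRY2, CLOCK and DBP) were followed across all 6 arrays of a WASF3 knockdown study in MDA-MB-231 cells. Members were the probe sets that the platform annotation gives to exactly 1 of these symbols, which left 24 of 54613 probe sets and 8 of the 10 genes. RORA had 8 of them and the other genes 16. Every probe set of NR1D1 (3) and PER1 (4) carries a further gene symbol, so neither gene has a value under its own name. The set was built around RORA because its lower signal in the knockdown clones was already known, so the RORA values are a description and carry no test.

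MDA-MB-231 is a human breast cancer cell line of the triple-negative kind. The 3 knockdown clones carry 1 of 2 retroviral short hairpin RNAs against WASF3, an activator of branched actin growth, and the 3 control clones carry the empty vector or a hairpin against GFP. All 6 are single puromycin-resistant clones at passage 4, each measured on 1 array, so a difference between groups also holds the differences between clones. Which hairpin or control vector a clone carries, the hour of harvest and any synchronisation of the cells are not given in the sources used here.

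The circadian clock of human cells is a transcriptional feedback loop. CLOCK and its partner BMAL1 switch on genes with E-box sequences, among them the PER and CRY genes, whose proteins return to the nucleus and block CLOCK and BMAL1. A second loop acts through ROR elements, where RORA activates and the REV-ERB repressors NR1D1 and NR1D2 silence the same targets, BMAL1 being the classical one. A further loop acts through D-box sequences, which DBP activates and NFIL3 represses. In cultured cells that are not synchronised the phases of single cells differ, and a bulk level averages over them.

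The sequences that these loops read can lie in the promoters of the genes, the only part searched here. RefSeq promoter windows of 300 bases, 250 before and 50 after the annotated start, were found for all 10 genes (14 windows, build GRCh38.p14). Both strands were searched for the E-box CACGTG, its variant CACGTT, the D-box TTATGNAA and the ROR core AGGTCA. The E-box was in 2 of the 14 windows, against 7.26% of all 35116 promoter windows, the variant in 5 (5.34% of all), the D-box in 3 (3.3% of all) and the ROR core in 3 (13.8% of all). The windows with a ROR core were 2 of CRY2 and 1 of PER1, which are not among the stretches below. Those stretches were chosen after the values were seen. NR1D2, CRY1 and PER2 had the largest differences among the measured members besides RORA, PER3 and CLOCK are shown for comparison, and BHLHE40 and BHLHE41 had the largest differences among the further clock genes. Capitals mark the matches, on either strand, and each stretch reads 5′ to 3′ on the strand of the gene.
NR1D2, chr3:23945907-23946041, plus strand, with a D-box and a pair of E-boxes: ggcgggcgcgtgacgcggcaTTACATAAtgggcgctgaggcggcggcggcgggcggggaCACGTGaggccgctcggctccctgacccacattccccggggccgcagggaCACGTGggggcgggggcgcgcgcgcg
CRY1, chr12:107093613-107093658, minus strand, with the E-box variant: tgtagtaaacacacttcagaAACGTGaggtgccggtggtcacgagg
PER2, chr2:238288782-238288827, minus strand, with the E-box variant: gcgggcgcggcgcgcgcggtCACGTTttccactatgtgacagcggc
PER3, chr1:7784094-7784141, plus strand, with a D-box: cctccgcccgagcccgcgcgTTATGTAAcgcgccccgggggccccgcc
CLOCK, chr4:55546094-55546139, minus strand, with the E-box variant: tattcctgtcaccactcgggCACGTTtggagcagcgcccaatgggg
BHLHE40, chr3:4979187-4979217, plus strand, with an E-box: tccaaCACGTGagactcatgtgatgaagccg
BHLHE41, chr12:26125060-26125105, minus strand, with an E-box: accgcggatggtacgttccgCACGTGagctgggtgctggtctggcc
No match of an E-box, its variant, a D-box or a ROR core overlapped another in these windows. A match is a description of the letters and not a shown binding site. The windows of RORA and DBP held none of these letters. Sequence outside the windows was not searched, so a gene without a match may still carry such an element elsewhere.

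Values are log2 signals after RMA, the authors' normalization, and differences are knockdown minus control on that scale. WASF3 itself read 5.40, 5.80 and 4.52 in knockdown clones 1, 2 and 3, against 6.77, 6.42 and 6.59 in control clones 1, 2 and 3, so every knockdown clone lay below every control clone (−1.35, SE 0.29, limma adjusted p = 0.102). Without knockdown clone 3 it was −0.99 and passed (adjusted p = 0.0175). In that fit 784 of all genes were higher and 441 lower at an adjusted p under 0.05, against 63 and 83 with all clones. An index of RNA quality, the 3′ minus 5′ signal of the GAPDH and ACTB control probe sets, was 1.62 to 2.11 in knockdown and 1.13 to 1.47 in control clones and separated the same groups (exact two-sided permutation p = 0.1, the smallest that 3 against 3 allows). The vimentin gene VIM, a mesenchymal marker expected in this line, read 14.1 in knockdown and 14.3 in control clones, and the surface receptor gene CD44 11.6 ± 0.56 in knockdown and 11.8 ± 0.04 in control clones (SD, n = 3 each). The 6 luminal markers had group means from 3.05 to 8.01 in knockdown and from 3.31 to 7.86 in control clones. Among them FOXA1 averaged 3.05 in knockdown and 3.31 in control clones, ESR1 5.73 and 5.89, and ERBB2, named after its values were seen, 8.01 and 7.86. The epithelial cadherin gene CDH1, named after its values were seen, read 7.33 in knockdown clone 1, against 4.44 and 4.47 in knockdown clones 2 and 3 and 4.59 to 5.19 in control clones. Of 10 leukocyte markers 9 were measured, and their group means ran from 3.27 to 5.69 in knockdown and from 3.20 to 5.79 in control clones, with CD3D at 4.73 in knockdown and 5.02 in control clones and CD14 at 4.27 and 4.59. Probe sets in or under that range are not shown to be above background.

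RORA, the orphan nuclear receptor that activates ROR elements, was lower in the knockdown clones on its brightest probe set, 226682_at. It read 3.31, 3.20 and 3.35 in knockdown clones 1, 2 and 3, against 5.14, 4.78 and 5.33 in control clones 1, 2 and 3. The knockdown clones sat close together and the groups did not overlap, with means of 3.29 ± 0.08 and 5.08 ± 0.28 (SD, n = 3 each). The difference of −1.80 left 28.8% of the control signal. The control level lay within the range of the leukocyte markers and the knockdown level at its lower end, so the size of the difference is uncertain. A lower bulk signal cannot tell fewer expressing cells apart from less RNA per cell. With the RNA quality index in the fit it was −1.66.

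The other 7 probe sets of RORA were dimmer in control clones and did not move alike. In knockdown clones 239550_at (mean 4.11), 236266_at (3.68) and 210426_x_at (3.38) read above 226682_at (3.29). The place of 226682_at as the brightest probe set therefore rested on its control level of 5.08. The difference of −1.80 and the comparisons of RORA with other genes below use this probe set. Probe set 210426_x_at read 3.30, 3.20 and 3.64 in knockdown clones, against 4.03, 3.87 and 4.09 in control clones, a difference of −0.61. Probe set 210479_s_at read 2.90, 2.87 and 3.20 in knockdown clones, against 3.66, 3.37 and 3.92 in control clones, a difference of −0.66. On both of these, which the annotation ties to RORA messenger RNA records, all knockdown clones lay below all control clones and clone 3 was the highest of the knockdown clones. Probe set 235567_at differed by −0.20, also without overlap, at 3.19 to 3.26 in knockdown and 3.41 to 3.45 in control clones. The remaining 4 overlapped, with differences from −0.06 to 0.02 and all values between 2.19 and 4.30. In all, 7 of 8 probe sets had a lower mean in knockdown clones, 4 without overlap, and 1 passed an adjusted p of 0.05 (limma over all probe sets), where 0.308% of all probe sets were called lower, and 11.1% of all had every knockdown clone below every control clone. Since RORA was chosen on this contrast, nothing is read from these counts. The mean over the 8 probe sets differed by −0.42.

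**Figure D1:**
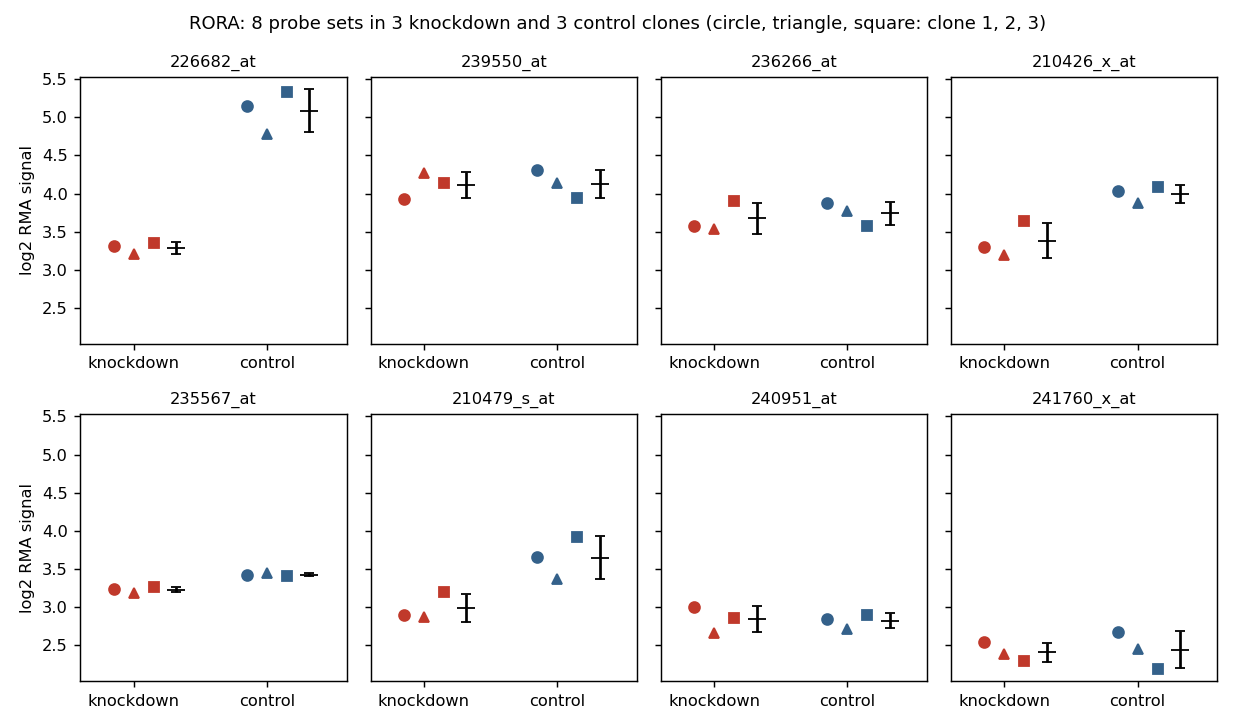
Log2 RMA signal (y axis) of the 8 RORA probe sets in knockdown (red, left) and control clones (blue, right), with the mean and SD of each group as black bars (n = 3). Probe set 226682_at shows the widest gap, −1.80, and 4 probe sets show groups that overlap.

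No measured gene beside RORA had a difference of similar size. None of the 12 measured neighbours in chromosomal order, 6 on each side, passed limma's adjusted p of 0.05 (unadjusted p under 0.05 for 2, 1 in each direction, where 16.8% of all genes had one, and 0.319% of all genes were called higher and 0.420% lower), with differences from −0.24 to 0.42 and a median of −0.04, against −0.01 over all genes. VPS13C, a lipid transfer protein gene on one side, gave 0.35 (SE 0.10, adjusted p = 0.173), with 7.98, 8.09 and 8.20 in knockdown clones, against 7.77, 7.65 and 7.81 in control clones. ANXA2, which encodes the membrane-binding annexin A2 and lies on the other side, gave −0.24 (SE 0.10, adjusted p = 0.325). The antisense gene RORA-AS1 gave 0.24 on the brighter of its 2 probe sets (adjusted p = 0.371), at 3.34 to 3.40 in knockdown and 3.00 to 3.32 in control clones.

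**Figure D2:**
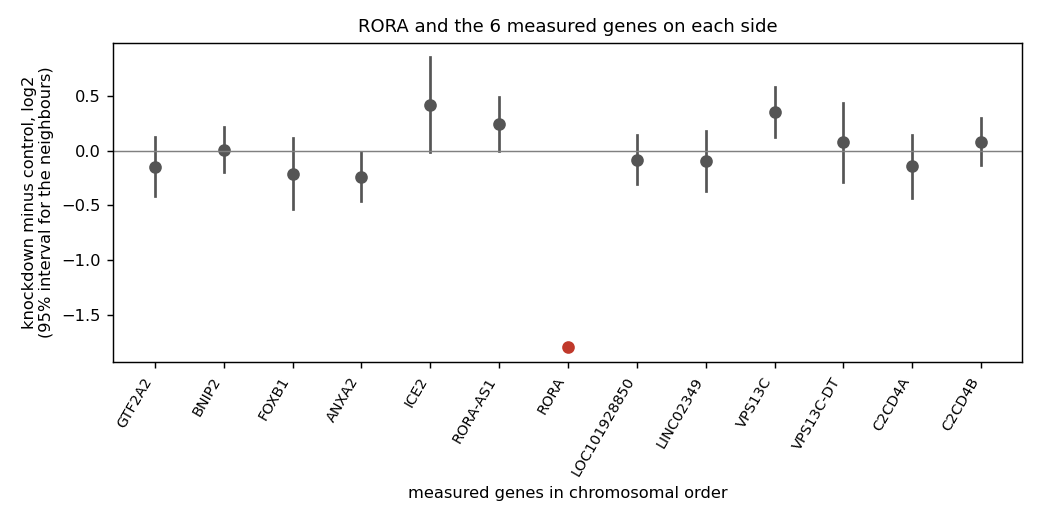
Knockdown minus control difference (log2, y axis) of RORA (red, point only, since RORA was chosen on it) and of the 6 measured genes on each side in chromosomal order (grey, with the 95% interval of the limma fit). RORA stands at −1.80 and the neighbours between −0.24 and 0.42.

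The genes whose brightest probe set followed that of RORA most closely over the 6 arrays were ZNF71 (Pearson r 0.997), WIPI2 (0.996), TMEM106C (0.995), GPKOW (0.995) and ARRDC3 (0.994), picked as the 5 highest of 19774 genes. The 6 arrays form 2 groups, so any gene with a like gap between them gives a high r, and these values carry no p. ARRDC3, an arrestin-domain gene, read 7.18, 7.08 and 7.22 in knockdown clones, against 7.76, 7.66 and 7.79 in control clones (−0.58). Since it was picked for following RORA on these arrays, that difference is a description and carries no test. Among the clock genes the correlation with RORA was most negative for NR1D2 and CRY1, at −0.87 each. It was 0.81 for DBP, 0.73 for CRY2, 0.49 for PER2, 0.26 for PER3 and −0.20 for CLOCK. Of all genes, 3.77% lay below the value of NR1D2, 4.13% below that of CRY1 and 93.2% below that of DBP.

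Of the 16 probe sets of the other clock genes, 0 passed limma's adjusted p of 0.05, where 0.558% of all probe sets did (0.251% higher and 0.308% lower). Unadjusted p-values under 0.05 belonged to 6 of the 16, 4 of them higher and 2 lower, against 14.0% of all probe sets. Groups did not overlap on 5 of them, 3 higher (9.85% of all probe sets) and 2 lower (11.1% of all), against 21.0% of all probe sets in either direction. Their median difference was 0.03, against −0.01 over all probe sets.

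NR1D2 encodes REV-ERB beta, the repressor that competes with RORA for ROR elements. It read 8.11, 8.37 and 8.38 in knockdown clones 1, 2 and 3, against 7.85, 7.76 and 7.90 in control clones 1, 2 and 3. All knockdown clones lay above all control clones, but the difference of 0.45 (SE 0.11, a ratio of 1.37) did not pass (limma adjusted p = 0.120). It passed in 1 of 13 alternative settings, without knockdown clone 1, the closest of them to the controls (0.54, adjusted p = 0.0417), and the other settings gave adjusted p from 0.0896 to 0.430. Without knockdown clone 1, 384 of all genes were called higher, against 63 with all clones. The difference was 0.26 as the mean of both probe sets and 0.70 with the RNA quality index in the fit (adjusted p = 0.204). The dimmer probe set of NR1D2 gave 0.06 (SE 0.09, adjusted p = 0.829), at 5.65 to 5.86 in knockdown and 5.70 to 5.73 in control clones, so the higher level stood on 1 of 2 probe sets. That dimmer level lies about the top of the range of the leukocyte markers.

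The 3 probe sets shared by NR1D1, the REV-ERB alpha gene, and THRA, the thyroid receptor gene on the opposite strand of the same locus, cannot be assigned to either. They differed in direction, at −0.58 (adjusted p = 0.140), −0.20 (adjusted p = 0.552) and 0.33 (adjusted p = 0.178). The first read 5.06, 4.97 and 5.50 in knockdown clones, against 5.78, 5.84 and 5.65 in control clones, without overlap. The last of these, also without overlap, read 4.39 to 4.53 in knockdown and 4.05 to 4.24 in control clones.

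CRY1, a repressor of CLOCK and BMAL1 that has both E-box and ROR-element control in mouse, had the largest difference among the measured members other than RORA. It read 8.95, 8.60 and 9.11 in knockdown clones 1, 2 and 3, against 8.26, 8.23 and 8.25 in control clones 1, 2 and 3. The control clones were nearly equal and every knockdown clone lay above them, with clone 2 the least. The difference of 0.64 (SE 0.13, a ratio of 1.56) missed the threshold (limma adjusted p = 0.0950). It kept its direction in the 13 alternative settings, from 0.53 to 0.78, and passed in none of them (adjusted p from 0.0514 to 0.408).

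CRY2 is the paralogue of CRY1 and a repressor of the same complex. It read 6.70, 6.73 and 6.87 in knockdown clones, against 6.84, 6.89 and 6.94 in control clones, and the groups overlapped. The difference was −0.13 (SE 0.09, 95% interval −0.34 to 0.086, adjusted p = 0.603). The difference between the effects on CRY1 and CRY2 was not tested.

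The PER genes encode the partners of the CRY proteins in the repressor complex, and their probe sets disagreed. PER2 read 6.51, 6.95 and 5.69 in knockdown clones 1, 2 and 3, against 6.90, 6.77 and 6.85 in control clones 1, 2 and 3 on its brighter probe set. Knockdown clone 3 stood far below and clone 2 above all controls, so the SD was 0.64 in knockdown and 0.07 in control clones. The difference of −0.46 (SE 0.28, adjusted p = 0.538) shrank to −0.11 without knockdown clone 3 (adjusted p = 0.733). The dimmer probe set of PER2 ordered the clones otherwise, at 3.49, 3.51 and 3.67 in knockdown clones, against 3.85, 3.82 and 3.78 in control clones (−0.26, SE 0.09, adjusted p = 0.261). That level is not shown to be above background.

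PER3 differed by −0.09 on the brightest of 4 probe sets (SE 0.12, adjusted p = 0.800), at 5.90, 6.05 and 5.61 in knockdown clones, against 5.90, 6.00 and 5.94 in control clones. Knockdown clone 3 was again the lowest. A second probe set went the other way, at 5.12, 5.37 and 5.17 in knockdown clones, against 5.13, 4.57 and 4.83 in control clones (0.37, SE 0.15, adjusted p = 0.331). The other 2 read between 2.59 and 3.39 on all arrays and differed by 0.03 each. No direction can be given for PER3.

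PER1 shares its 4 probe sets with the microRNA gene MIR6883, which the annotation lists with it. They gave 0.06, 0.09, 0.21 and 0.24 (adjusted p from 0.678 to 0.903) and all overlapped between groups. On 202861_at knockdown clone 3 stood apart at 7.46, against 6.44 and 6.47 in knockdown clones 1 and 2 and 6.40 to 6.74 in control clones. It was also the highest on 36829_at, at 7.51, against 7.05 and 6.95 in knockdown clones 1 and 2 and 7.07 to 7.18 in control clones. On 244677_at, in the range of the leukocyte markers, it was again the highest, at 5.01. On 242832_at it read 5.42, inside the range of the other arrays. The same clone was the lowest of all on the brighter probe set of PER2 and the highest knockdown clone on the dimmer one.

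CLOCK, the DNA-binding partner of BMAL1, differed little on its brightest probe set. That probe set read 9.73, 9.66 and 9.42 in knockdown clones, against 9.56, 9.55 and 9.58 in control clones, a difference of 0.038 (SE 0.10, 95% interval −0.21 to 0.28, adjusted p = 0.915). The next one read 8.32, 8.38 and 8.18 in knockdown clones, against 7.96, 8.10 and 8.05 in control clones, without overlap (0.26, SE 0.09, adjusted p = 0.279). The other 2 gave 0.12 and −0.13 with overlap.

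DBP, the D-box activator whose own transcript is a direct E-box target, was lower on both probe sets without passing. The brighter one read 4.82, 4.56 and 5.07 in knockdown clones, against 5.32, 5.08 and 5.19 in control clones, without overlap, the highest knockdown clone lying just under the lowest control clone (−0.38, SE 0.14, adjusted p = 0.287). The other gave −0.18 (SE 0.10, adjusted p = 0.484), at 4.62 to 4.87 in knockdown and 4.87 to 5.02 in control clones. Both lie in the range of the leukocyte markers.

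**Figure D3:**
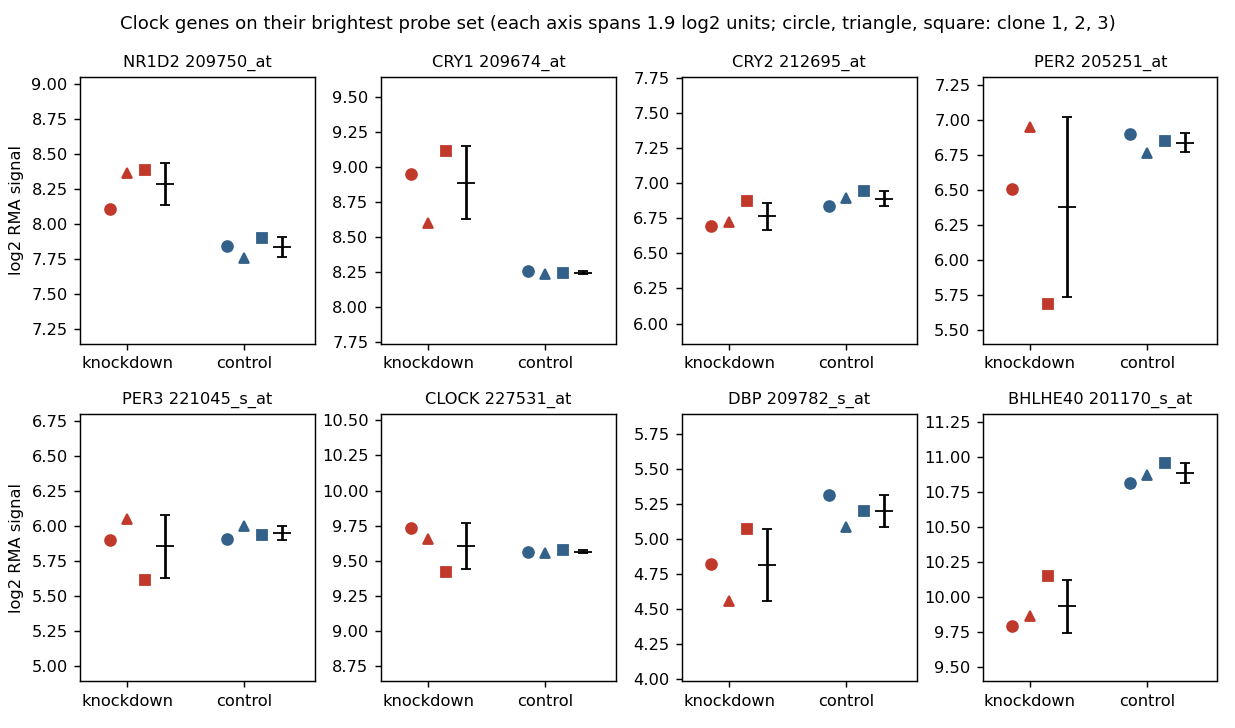
Log2 RMA signal (y axes, each spanning 1.9 units) of the brightest probe set of 7 clock genes and of BHLHE40 in knockdown (red, left) and control clones (blue, right), with mean and SD as black bars (n = 3). NR1D2 and CRY1 are higher and BHLHE40 lower in every knockdown clone, and PER2 spreads most among knockdown clones, with an SD of 0.64 in knockdown and 0.07 in control clones.

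**Figure D4:**
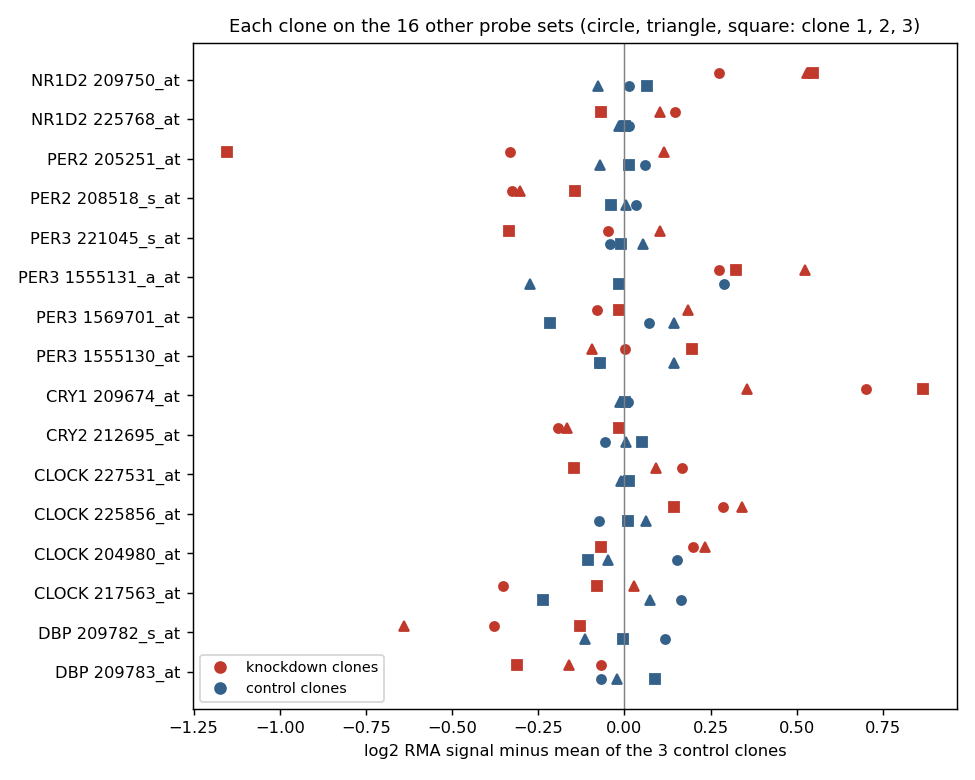
Log2 signal of each clone minus the mean of the 3 control clones (x axis) on the 16 probe sets of clock genes other than RORA, with knockdown clones in red above control clones in blue. Knockdown clone 3 (square) is at −1.15 on PER2 205251_at and at 0.87 on CRY1.

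Around these members, 23 further clock genes were listed and 20 measured, with 1 lower and 0 higher (limma adjusted p under 0.05, one probe set a gene), where 0.420% of all genes were called lower and 0.319% higher. Unadjusted p-values under 0.05 numbered 11, 3 higher and 8 lower, against 16.8% of all genes (9.11% higher and 7.67% lower). Their median difference was −0.13, against −0.01 over all genes. The gene that fell was BHLHE40, which encodes DEC1, a repressor that binds E-boxes. It read 9.79, 9.86 and 10.1 in knockdown clones 1, 2 and 3, against 10.8, 10.9 and 11.0 in control clones 1, 2 and 3, a wide gap (−0.95, SE 0.12, adjusted p = 0.0317). This left 51.9% of the control signal, and the dimmer probe set gave −0.43 (SE 0.12, adjusted p = 0.180). The call was lost without knockdown clone 2 (adjusted p = 0.0776) and without any 1 control clone (adjusted p from 0.230 to 0.260), with differences from −0.98 to −0.91, and it held in 6 of 12 alternative settings. Without 1 control clone, 0 of all genes were called higher and 2 to 3 lower, against 63 and 83 with all clones. Without knockdown clone 2 these counts were 5 and 15. With the RNA quality index in the fit the BHLHE40 difference was −0.81 (adjusted p = 0.227).

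The other repressors did not pass and did not share a direction. BHLHE41, the DEC2 gene, named after its values were seen, read 7.78, 7.69 and 6.42 in knockdown clones, against 8.37, 8.20 and 8.36 in control clones (−1.01, SE 0.33, adjusted p = 0.233). As on the brighter probe set of PER2, clone 3 was the lowest knockdown clone. Without it the difference was −0.58 and passed (adjusted p = 0.0241), in a fit that called 441 of all genes lower, against 83 with all clones. The other 3 probe sets of BHLHE41 gave −0.39, −0.21 and 0.02, and the mean of all its probe sets −0.40 (adjusted p = 0.301). CIART, a repressor of CLOCK and BMAL1 also called CHRONO, gave −0.39 (SE 0.10, adjusted p = 0.140) and the CLOCK-interacting repressor CIPC 0.49 (SE 0.14, adjusted p = 0.197), both without overlap and both named after their values were seen. TIMELESS, better known in mammals for replication fork protection, gave −0.16 (adjusted p = 0.768) and was also named afterwards.

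None of the 3 further activators passed in limma, and NPAS2 alone had an unadjusted p under 0.05. NPAS2, which can replace CLOCK, gave −0.40 (SE 0.14, adjusted p = 0.263), at 8.90, 9.23 and 8.69 in knockdown clones, against 9.35, 9.36 and 9.30 in control clones. Its further probe sets gave −0.44, −0.62, −0.50 and −0.33, none passing (adjusted p from 0.134 to 0.523). The mean of all NPAS2 probe sets was −0.46 (adjusted p = 0.153). BMAL2 gave 0.22 (SE 0.23, adjusted p = 0.730), or 0.83 with the RNA quality index in the fit (adjusted p = 0.329), with the knockdown clones at 9.39, 9.83 and 10.3, against 9.66, 9.49 and 9.76 in control clones. BMAL1, named after its value was seen because it is the classical RORA target, gave −0.075 (SE 0.11, 95% interval −0.34 to 0.19, adjusted p = 0.825). The dimmer probe set of BMAL1 gave −0.18 (adjusted p = 0.428). The brighter one read 7.11, 6.85 and 6.81 in knockdown clones, against 6.89, 7.04 and 7.06 in control clones, with overlap. An equal level is not shown by this test.

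Of the D-box factors besides DBP, none passed in limma and 2 of 3 were lower at an unadjusted p under 0.05 (7.67% of all genes). NFIL3, the D-box repressor, gave −0.31 (SE 0.09, adjusted p = 0.200), at 8.29, 8.29 and 8.36 in knockdown clones, against 8.61, 8.53 and 8.76 in control clones. TEF, an activator related to DBP, gave −0.31 (SE 0.10, adjusted p = 0.246). Neither group overlapped with the other for these genes. Of 2 measured genes among other ROR receptors and the NR1D corepressor, none passed (0 at an unadjusted p under 0.05), with HDAC3, the deacetylase of the corepressor, at −0.17 (adjusted p = 0.465) and the receptor gene RORB at 0.44 (adjusted p = 0.488) at a dim level.

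Genes that set the lifetime of PER and CRY proteins were also uncalled in limma, where 4 of 7 had an unadjusted p under 0.05, 2 in each direction (16.8% of all genes). BTRC, a ubiquitin ligase subunit that recognises phosphorylated PER, read 7.86, 7.73 and 7.81 in knockdown clones, against 7.31, 7.34 and 7.36 in control clones (0.46, SE 0.08, adjusted p = 0.0676). It passed without knockdown clone 3 (adjusted p = 0.0374), in a fit that called 784 of all genes higher, against 63 with all clones. Its other 4 probe sets gave only from −0.10 to 0.23, and the mean of all its probe sets was 0.18 (adjusted p = 0.333). CSNK1E, a kinase of the PER proteins, read 8.72, 8.66 and 8.96 in knockdown clones, against 9.08, 9.08 and 9.18 in control clones (−0.33, SE 0.11, adjusted p = 0.223). It passed without knockdown clone 3 (−0.43, adjusted p = 0.0448), in a fit that called 441 of all genes lower, against 83 with all clones. Its other probe set gave −0.056 (adjusted p = 0.852), and the mean of its probe sets was −0.19 (adjusted p = 0.265). On the brightest probe sets of BTRC and CSNK1E the groups were apart, in opposite directions.

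**Figure D5:**
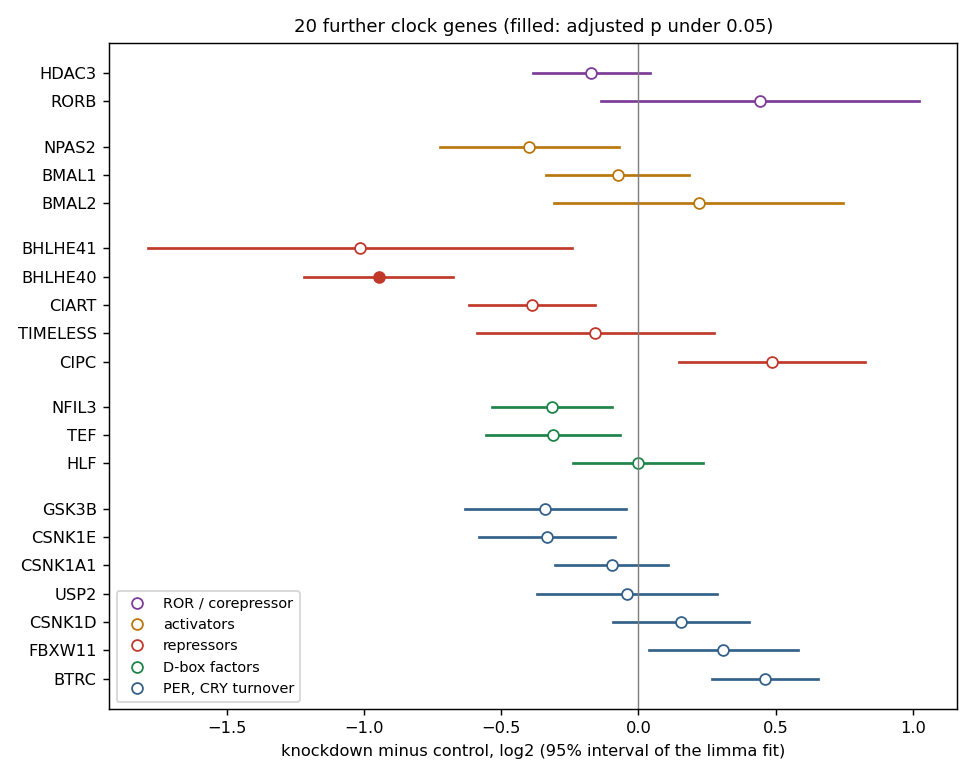
Knockdown minus control difference (log2, x axis) of 20 further clock genes on their brightest probe set, with the 95% interval of the limma fit, grouped by role. BHLHE40 (filled) passed an adjusted p of 0.05, and 14 of the 20 genes lie below 0.

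Genes with a ROR element reported in the literature were taken as a list of 14, of which 12 were measured and 4 (BMAL1, NPAS2, NFIL3 and CRY1) are already described. Of the 12, 1 was lower and 0 were higher (limma adjusted p under 0.05), where 0.420% of all genes were called lower and 0.319% higher. Their median was −0.10, against −0.01 over all genes, and 10 had a lower mean, as did 52.4% of all genes. SEMA3F, a secreted semaphorin, fell, at 7.24, 7.37 and 7.04 in knockdown clones, against 7.89, 7.92 and 8.02 in control clones (−0.73, SE 0.11, adjusted p = 0.0461). The call held in 5 of 13 alternative settings. It was lost without knockdown clone 2 (adjusted p = 0.0744) and without any 1 control clone (adjusted p from 0.274 to 0.279). The difference then lay between −0.80 and −0.69. With all 6 clones it was lost with an intensity trend (limma adjusted p = 0.0693) and median centring (0.0527). The replicate block (0.175) and the RNA quality index in the fit (−0.75, adjusted p = 0.245) also lost it. In those fits without 1 clone, only 0 to 5 of all genes were called higher and 2 to 15 lower. Of the other SEMA3F probe sets 1 passed (−0.92, SE 0.12, adjusted p = 0.0358) and 1 gave −0.18 (adjusted p = 0.584). The one that passed averaged 4.62 in knockdown and 5.54 in control clones, in the range of the leukocyte markers. The liver genes of the list, also named after their values were seen, APOA1, APOC3, APOA5, G6PC1 and FGF21, gave differences from −0.12 to 0.24 and none of them passed. NFKBIA, an inhibitor of NF-kappa-B, gave −0.26 (adjusted p = 0.219) and the muscle caveolin gene CAV3 −0.18 (adjusted p = 0.489), both without overlap and both named after their values were seen.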

How the data were processed

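Total RNA was labelled with the 3′ IVT protocol, which starts at the polyadenylated end, and hybridised to 1 Affymetrix array a clone, per the labels' protocols. The authors deposited log2 values from RMA, run in Expression Console 1.0 of Affymetrix according to their processing notes on the labels. This step subtracts background and sets all arrays to 1 distribution, so a change of most transcripts would not be seen, and their number, 3 a group, limits the precision. Scanner files were not used here. Symbols came from the platform annotation, updated by identifier through RefSeq (GRCh38.p14). Of 54613 probe sets that are not controls, 41091 had 1 symbol (41037 matched by identifier), 1801 several and 11721 none.

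Values were fitted with limma 3.58.1 in R 4.3.3 (lmFit, eBayes, group as the only term, 6 arrays), two-sided, with Benjamini-Hochberg adjustment over all probe sets but the controls. The brightest probe set stood for its gene, which gave 19775 genes. P-values set the group difference against the spread between clones, fitted as 1 spread shared by the groups. The median SD over probe sets was 0.157 in knockdown and 0.086 in control clones. The fit was tested on simulated data with normal noise and 1 SD shared by the groups at each probe set. It recovered 68% of changes of 1 log2 unit and 92% of changes of 2, with 7 false calls among 167 calls. Named genes were every member probe set, WASF3, in each list the called genes or the 2 of smallest p, the 6 measured neighbours of RORA on each side, and the 5 genes most correlated with RORA. Genes named outside this rule are marked in the text. The members and lists were chosen with earlier results of these data known. Alternatives were an intensity trend, median centring, a filter on dim probe sets, other probe set choices, the RNA index as a covariate, the replicate number as a block, and leaving out each clone.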

Additional observations from a re-analysis of the deposited data

How the results depend on the processing

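The RORA difference stayed between −1.95 and −1.67 when 1 clone was left out, and was −0.42 as the mean of all its probe sets. Its brightest probe set has a mean under 5 and could not be fitted with the filter on dim probe sets, where 0 RORA probe sets were called. Without 1 clone, between 0 and 3 RORA probe sets were called lower, and 0 to 1 probe sets of the other members, 0 to 1 further clock genes and 0 to 784 of all genes were called higher. In the same fits 0 to 3 further clock genes and 2 to 441 of all genes were called lower. Of all genes, 19 were higher and 44 lower with an intensity trend, 97 higher with the filter on dim probe sets, 110 higher and 128 lower with the mean of all probe sets, and 37 higher and 51 lower without x_at and s_at probe sets, against 63 higher and 83 lower as reported. BHLHE40 has no other kind of probe set, so 0 further clock genes were called lower there. With the RNA index as a covariate 0 RORA probe sets, 0 further clock genes and 1 of all genes were lower and 0 were higher.

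The replicate numbers do not pair the clones (correlations of deviations −0.07, −0.10 and −0.04 for numbers 1, 2 and 3). With the replicate number as a block, 0 RORA probe sets, 0 further clock genes and 3 of all genes were lower and 0 were higher. Of 91 values of the 7 other measured members, 85 kept direction and side of the threshold. CLOCK changed sign to −0.10 with the RNA index and ran from −0.028 to 0.13 without 1 clone. PER3 changed sign to 0.086 with the mean of all probe sets and 0.37 without x_at and s_at, and ran from −0.19 to 0.028 without 1 clone. BMAL2 ran from −0.027 to 0.45 without 1 clone and was 0.83 with the RNA index. Over all settings PER2 ran from −0.74 to −0.11, DBP from −0.51 to −0.18, CRY2 from −0.18 to −0.073, TEF from −0.39 to −0.11, HDAC3 from −0.22 to −0.077 and RORB from 0.14 to 0.65, and none of them passed in any. BHLHE41 ran from −1.45 to −0.21 and BTRC from 0.18 to 0.49, each passing in 1 of 13. The causes were not tested. With 3 arrays a group and dim RORA signals, differences close to background are poorly sized.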
